A study of Mus musculus with 6 samples.

Results

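Cytochrome P450 genes encode heme-containing monooxygenases, and 99 of the 24984 gene symbols counted in mouse inguinal fat belonged to them by name. The members were the symbols that begin with Cyp followed by a family number, a subfamily letter and a gene number. The pattern was matched by 103 symbols, of which 4 pseudogenes were left out. One of the 99, Cyp4x1os, is annotated as a non-coding transcript antisense to Cyp4x1, so 98 remained as enzymes. The naming pattern passes over Cyp51, Cyp2ab1, Tbxas1 and Ptgis, which are P450 genes under other kinds of symbol.

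The 6 libraries came from inguinal white adipose tissue of Mpst knockout mice on a high-fat diet (n = 3) and of wild-type mice on the same diet (n = 3). Mpst encodes a sulfurtransferase that takes part in making hydrogen sulfide. The kind of Mpst allele, the cells that lack it, and the age and sex of the mice were not given in the sources used here. Since nothing in the labels states that the replicates came from different animals, p-values here measure only how far these samples spread, which may be technical. The comparison asks which transcripts of this depot differ between the genotypes under one diet. Mpst had 3, 10 and 9 counts in knockout and 1358, 1394 and 1624 in wild type. Total counts ranged from 8054560 in knockout replicate 1 to 22458630 in knockout replicate 2, with the wild-type libraries between 17394489 and 21576075. All 10 adipocyte markers were tested, and their summed level was 39217 to 46967 CPM in the knockout libraries and 50646 to 60306 CPM in the wild-type libraries. CPM are counts scaled to a common normalised library size. The 10 macrophage markers summed to 1772 to 1876 CPM in the knockout libraries and 516 to 1032 CPM in the wild-type libraries. Skeletal muscle markers summed to 35.4 to 1865 CPM in the knockout libraries and 36.6 to 795 CPM in the wild-type libraries, with the highest sum in knockout replicate 3. In bulk tissue, fewer cells of a type and less RNA per cell cannot be told apart.

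P450 enzymes insert an oxygen atom into a substrate with electrons passed on by P450 oxidoreductase in the endoplasmic reticulum or by ferredoxin in mitochondria. Many of them clear drugs and other foreign compounds and are best known from the liver, while others hydroxylate fatty acids and eicosanoids, sterols, steroid hormones, vitamin D or retinoic acid. In fat, they act on signalling lipids, retinoids and fat-soluble foreign compounds.

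Of the P450 genes with enough counts to test, 1 rose in the knockout, 2 fell and the others were not called. Of the 99 members, 37 had no count in any library, 35 had counts but did not pass the filter on low counts, and 27 were tested. Cyp1b1 was higher in the knockout, and Cyp2e1 and Cyp4f13 were lower (edgeR's quasi-likelihood test over all genes, Benjamini-Hochberg adjusted p under 0.05), which left 24 of the 27 without a call. Over all 14065 genes tested, 4.76% were called higher and 2.65% lower, or 7.41% in either direction, against 11.1% of the tested P450 genes. Before adjustment, 10 of the 27 had a p under 0.05 in the same test. Without the share over all tested genes, that count shows nothing particular to P450 genes. The libraries of the knockout and the wild type were fully apart in 8 of the 27 (29.6%), against 33.3% of all tested genes. The shares of called genes and of genes with groups fully apart lay near the background. The median log2 fold change was −0.04 over the 27 genes, with 12 above 0 and 15 below, and 0.01 over all tested genes.

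The upstream sequences of the 3 genes that changed are shown because they flank the start sites of these transcripts. Each runs over the 250 bases before the RefSeq start on GRCm38.p6, the assembly behind mm10, 5′ to 3′ on the gene's strand, and for Cyp2e1 and Cyp4f13 GENCODE places the outermost start inside the stretch. Cyp2e1 is at chr7:140763569-140763818 on the plus strand, with a TATA box (TATAAA) in capitals. Cyp1b1 is at chr17:79715062-79715311 on the minus strand, with the core letters bound by the aryl hydrocarbon receptor (GCGTG, here as their reverse complement) in capitals. Cyp4f13 is at chr17:32947362-32947611 on the minus strand, with a GC box (GGGCGG, also as its reverse complement) in capitals. The Cyp1b1 stretch also holds a GC box as its reverse complement, left in lower case.
Cyp2e1: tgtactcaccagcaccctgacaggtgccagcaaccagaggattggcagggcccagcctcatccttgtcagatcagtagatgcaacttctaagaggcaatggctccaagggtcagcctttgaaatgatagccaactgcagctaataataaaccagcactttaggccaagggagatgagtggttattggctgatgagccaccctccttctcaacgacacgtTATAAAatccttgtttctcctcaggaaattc
Cyp1b1: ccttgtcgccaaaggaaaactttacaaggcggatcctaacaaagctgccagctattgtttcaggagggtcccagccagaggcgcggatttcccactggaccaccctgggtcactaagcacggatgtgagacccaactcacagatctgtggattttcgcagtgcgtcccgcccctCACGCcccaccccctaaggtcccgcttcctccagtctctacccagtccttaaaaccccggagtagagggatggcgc
Cyp4f13: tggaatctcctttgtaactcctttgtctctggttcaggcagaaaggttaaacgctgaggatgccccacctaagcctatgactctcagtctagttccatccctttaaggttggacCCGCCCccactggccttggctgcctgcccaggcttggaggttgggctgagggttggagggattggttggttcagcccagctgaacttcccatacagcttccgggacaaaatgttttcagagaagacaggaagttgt

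These stretches held 2 CpG dinucleotides for Cyp2e1, 12 for Cyp1b1 and 3 for Cyp4f13. The 3 motifs, whose matches may overlap each other, were searched on both strands in windows of 300 bases that reach 50 bases past the start, and 21 of the 27 tested genes had such a window. The receptor core was in the windows of 10 of the 21 (47.6%) and in 32.4% of all 32851 windows. The TATA box was in those of 3 of the 21 (14.3%), Cyp2e1, Cyp26b1 and Cyp2c70, and in 13.6% of all. The GC box was in those of 11 of the 21 (52.4%) and in 35.7% of all. A gene counted where any of its windows held the motif, while each share of all was taken over single windows. The shares of genes and of windows are therefore not in like units. The receptor core also stood before genes without a call, such as Cyp20a1 and Cyp4v3, and a match describes the letters only.

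Cyp2e1, an ethanol-inducible enzyme that oxidises small molecules such as ethanol, acetone and paracetamol, had the highest mean level per length of the P450 genes in both groups and fell in the knockout, where Cyp4b1 was higher than it in replicates 1 and 2. It had 106, 121 and 256 CPM in the knockout libraries, against 517, 779 and 532 CPM in the wild-type libraries. Every knockout library lay below every wild-type library, and knockout replicate 3 was the highest of its group. The level was 3.78-fold lower in the knockout (log2 fold change −1.92, SE 0.34, 95% interval −2.69 to −1.15, adjusted p = 0.0210). The gene spans 140763739 to 140774987 on chromosome 7, plus strand, in the GRCm38 build. The call ended without knockout replicate 1 (log2 fold change −1.69, adjusted p = 0.0743), knockout replicate 2 (−1.75, adjusted p = 0.0825), wild-type replicate 2 (−1.71, adjusted p = 0.109) or wild-type replicate 3 (−2.001, adjusted p = 0.0534). Of these fits, that without wild-type replicate 3 called 18.3% of all genes and the others 0.32% or less, against 7.41% with all libraries.

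Summed levels of adipocyte and of hepatocyte markers were also lower in the knockout libraries. Of the 10 adipocyte markers, 9 had log2 fold changes below 0 and 1 was called lower, with a median of −0.33, and their part in the fall of Cyp2e1 was not tested. The 10 hepatocyte markers summed to 10.4 to 14.2 CPM in the knockout libraries and 33.7 to 49.5 CPM in the wild-type libraries, and most of it was albumin (Alb), which had 11.8, 8.58 and 7.85 CPM in the knockout libraries, against 30.1, 46.3 and 39.3 CPM in the wild-type libraries. The other tested members were not called, as Apoa2 had 6, 18 and 20 counts in knockout and 29, 21 and 9 in wild type (log2 fold change −0.51, adjusted p = 0.554) and Serpina1c had 14, 29 and 36 counts in knockout and 18, 21 and 23 in wild type (log2 fold change 0.36, adjusted p = 0.472). The 7 members that were not tested had at most 9 counts in any library, and Fga and Fgb had none. Among P450 genes known from liver, of which only examples are named, Cyp3a11, Cyp2c37, Cyp2c54 and Cyp7a1 had no count. Cyp2c29 and Cyp2c50 had 1 each, while Cyp2c70, Cyp8b1, Cyp2f2 and Cyp27a1 had counts in every library. The log2 fold change was 1.19 for Cyp2c70, −2.32 for Cyp2f2 and −0.55 for Cyp27a1, without a call. Cyp8b1 had at most 9 counts in any library and was not tested. The part of the hepatocyte markers in the fall of Cyp2e1 was not tested.

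The summed level of all 99 members was 669, 701 and 890.3 CPM in the knockout libraries, against 1096, 1414 and 1190.3 CPM in the wild-type libraries. The groups were fully apart. Cyp2e1 made up 15.8%, 17.3% and 28.7% of that sum in the knockout libraries and 47.2%, 55.1% and 44.7% in the wild-type libraries. Without Cyp2e1 the sums overlapped, at 593 ± 37.3 CPM in knockout and 624 ± 41.1 CPM in wild type (SD, n = 3 each), so most of the difference between the sums lay in this 1 gene.

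**Figure D1:**
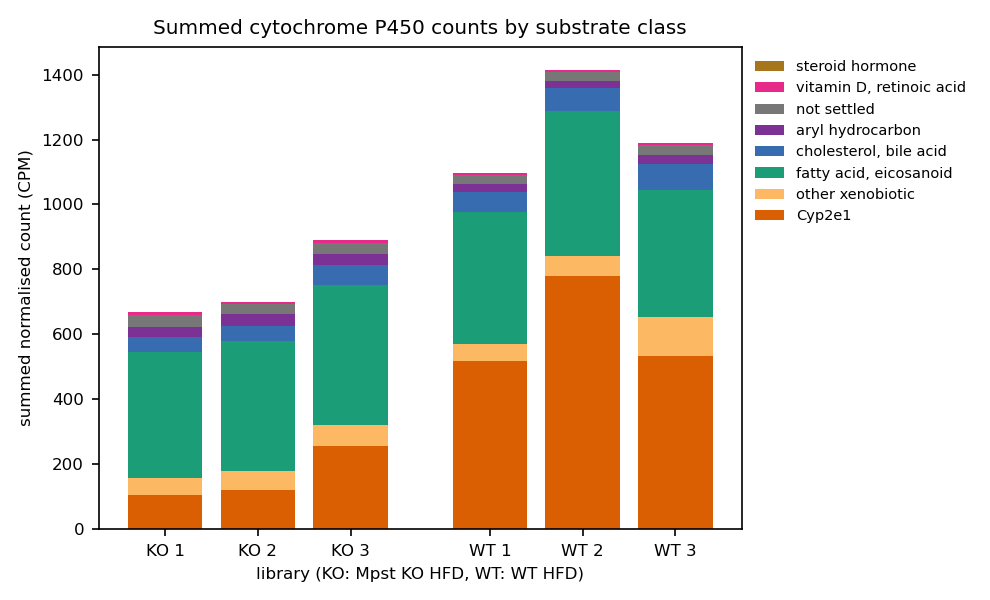
Summed normalised count (CPM, y axis) of P450 genes in each library (x axis), stacked by substrate class, with Cyp2e1 drawn apart from the other xenobiotic genes. The Cyp2e1 segment is 106 to 256 CPM in the knockout libraries and 517 to 779 CPM in the wild-type libraries, while the fatty acid and eicosanoid segment is 389 to 429 CPM in knockout and 390.3 to 446 CPM in wild type.

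The xenobiotic class, drug-metabolising subfamilies of families 2 and 3, was the largest with 45 members, of which 23 were at 0 in all libraries and 7 were tested. Cyp2e1 was its only call. Cyp2f2, known from mouse lung for activating naphthalene, had 3.58, 1.94 and 6.37 CPM in the knockout libraries, against 5.70, 11.2 and 42.5 CPM in the wild-type libraries. Wild-type replicate 3 stood far above the other libraries, and knockout replicate 3 lay above wild-type replicate 1. Its log2 fold change of −2.32 did not pass (SE 0.84, adjusted p = 0.138), and without wild-type replicate 3 it was −1.07 (adjusted p = 0.181). Without knockout replicate 3 it was −2.94 (adjusted p = 0.196).

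Cyp2d22, the highest Cyp2d transcript here, had 41.7, 48.5 and 54.4 CPM in the knockout libraries, against 41.6, 47.8 and 78.1 CPM in the wild-type libraries. The groups overlapped (log2 fold change −0.21, 95% interval −0.72 to 0.30, adjusted p = 0.584), and the sign turned without wild-type replicate 3 (0.12). The Cyp2b subfamily, which phenobarbital induces in liver, had low counts. Cyp2b9 had 6, 25 and 28 counts in knockout and 4, 12 and 1 in wild type (log2 fold change 1.66, SE 0.67, adjusted p = 0.149), with values of 1.09 without wild-type replicate 3 and 2.88 without wild-type replicate 2. Cyp2c70, which makes muricholic bile acids in mouse liver, had 1.19, 1.76 and 1.15 CPM in the knockout libraries, against 0.858, 0.669 and 0.325 CPM in the wild-type libraries. Its libraries did not overlap between the groups, but it was not called (log2 fold change 1.19, SE 0.43, adjusted p = 0.113). Cyp2b10 and Cyp2c23 had log2 fold changes of 0.43 and −0.31, with adjusted p of 0.515 and 0.736, and that of Cyp2c23 was 0.10 without wild-type replicate 1. Of the members that were not tested, Cyp2b23 had 4, 7 and 11 counts in knockout and 7, 1 and 0 in wild type.

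**Figure D2:**
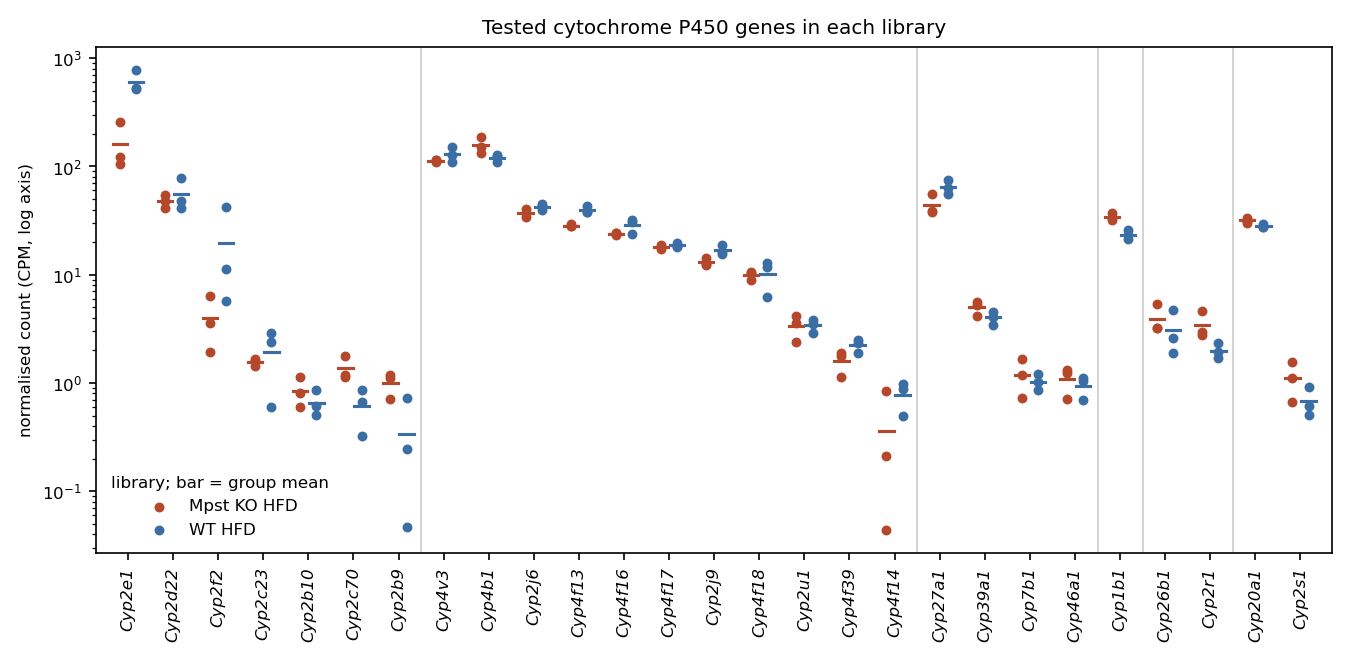
Normalised count (CPM, log y axis) of each of the 27 tested P450 genes (x axis) in the 3 Mpst KO HFD and the 3 WT HFD libraries, 1 point per library with a bar at the group mean, ordered by class (grey lines) and then by wild-type mean. The knockout points of Cyp2e1 (106 to 256 CPM) lie below its wild-type points (517 to 779 CPM), and those of Cyp2f2 (1.94 to 6.37 CPM) overlap with a wild-type range of 5.70 to 42.5 CPM.

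The fatty acid and eicosanoid class held 27 members, of which 11 were tested and 1 fell. Of the 11, 10 had log2 fold changes below 0 and 1 above, and the median was −0.20. The summed level of the class was 407 ± 20.6 CPM in knockout and 414 ± 28.3 CPM in wild type (SD, n = 3 each), and the groups overlapped.

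Cyp4f13, of a subfamily that hydroxylates fatty acids and leukotrienes, had 29.5, 27.9 and 27.9 CPM in the knockout libraries, against 37.6, 37.7 and 43.2 CPM in the wild-type libraries. The knockout libraries were close to each other and all lay below the wild-type libraries. The log2 fold change was −0.48 (SE 0.12, 95% interval −0.74 to −0.21, adjusted p = 0.0440). The call held without wild-type replicate 3 (−0.40, adjusted p = 0.0382), in a fit that called 18.3% of all genes, against 7.41% with all libraries. It ended without any one of the other libraries, with log2 fold changes from −0.51 to −0.46 and adjusted p from 0.0669 to 0.145. Over all genes, 5.55% were called without wild-type replicate 1 and 0.32% or less in the other fits where the call ended.

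Cyp4f13 lies at 32924688 to 32947402 on the minus strand of chromosome 17, at the end of a stretch of 495 kb that starts at 32452723 and holds 8 Cyp4f genes. The 5 tested genes there all had log2 fold changes below 0, and Cyp4f13 alone was called. Cyp4f16 had 24.2, 24.2 and 23.2 CPM in the knockout libraries, against 32.2, 30.8 and 23.5 CPM in the wild-type libraries (log2 fold change −0.27, SE 0.14, adjusted p = 0.257). Wild-type replicate 3 lay close to the knockout libraries, and without it the log2 fold change was −0.40 with an adjusted p of 0.0451. That fit called 18.3% of all genes, against 7.41% with all libraries. Cyp4f17 differed least (17.99 ± 0.738 CPM in knockout and 18.7 ± 0.877 CPM in wild type, SD, n = 3 each, log2 fold change −0.05, 95% interval −0.33 to 0.23, adjusted p = 0.823).

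Cyp4f39, which hydroxylates very long fatty acids of the skin barrier, had a log2 fold change of −0.50 (adjusted p = 0.329). Cyp4f14 had 7, 1 and 5 counts in knockout and 8, 16 and 19 in wild type (log2 fold change −1.54, SE 0.75, adjusted p = 0.218), with values of −2.55 without knockout replicate 1 and −0.84 without knockout replicate 2. The 3 other genes of the stretch, Cyp4f37, Cyp4f40 and Cyp4f15, had at most 1 count in any library. Cyp4f18, a leukotriene hydroxylase of mouse neutrophils that lies on another chromosome, had 9.95 ± 0.878 CPM in knockout and 10.3 ± 3.54 CPM in wild type (SD, n = 3 each, log2 fold change −0.03, 95% interval −0.63 to 0.57, adjusted p = 0.951). Its sign turned without knockout replicate 1 (0.03), wild-type replicate 1 (0.18) or wild-type replicate 2 (0.07).

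Cyp4b1, a fatty acid hydroxylase, was the only tested gene of the class with a log2 fold change above 0. It had 132, 151 and 188 CPM in the knockout libraries, against 111, 124 and 128 CPM in the wild-type libraries. The knockout libraries all lay above the wild-type libraries, by a small margin between knockout replicate 1 and wild-type replicate 3, and the gene missed the threshold (log2 fold change 0.38, SE 0.15, adjusted p = 0.141). Cyp4v3, which hydroxylates medium-chain fatty acids, had 114, 114 and 109 CPM in the knockout libraries, against 128, 152 and 109 CPM in the wild-type libraries (log2 fold change −0.20, adjusted p = 0.375).

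Cyp2j9 and Cyp2j6, of the mouse subfamily of arachidonic acid epoxygenases, both lie on chromosome 4. Cyp2j9 had 14.3, 12.2 and 12.5 CPM in the knockout libraries, against 16.3, 18.7 and 15.7 CPM in the wild-type libraries, without overlap (log2 fold change −0.38, SE 0.15, adjusted p = 0.134). Cyp2j6 had 37.4 ± 2.91 CPM in knockout and 42.6 ± 2.54 CPM in wild type (SD, n = 3 each, log2 fold change −0.19, adjusted p = 0.322). Neither was called. Cyp2u1, a fatty acid hydroxylase, had a log2 fold change of −0.04 (95% interval −0.68 to 0.59, adjusted p = 0.940), whose sign turned without knockout replicate 3 (0.17) or wild-type replicate 1 (0.05). Of the 8 members of the Cyp4a subfamily, whose liver genes respond to the fatty acid receptor PPAR alpha, none was tested. Cyp4a32 had 5, 7 and 13 counts in knockout and 5, 1 and 9 in wild type, Cyp4a10 and Cyp4a14 had at most 2 counts in any library, and 4 of the 8 were at 0.

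**Figure D3:**
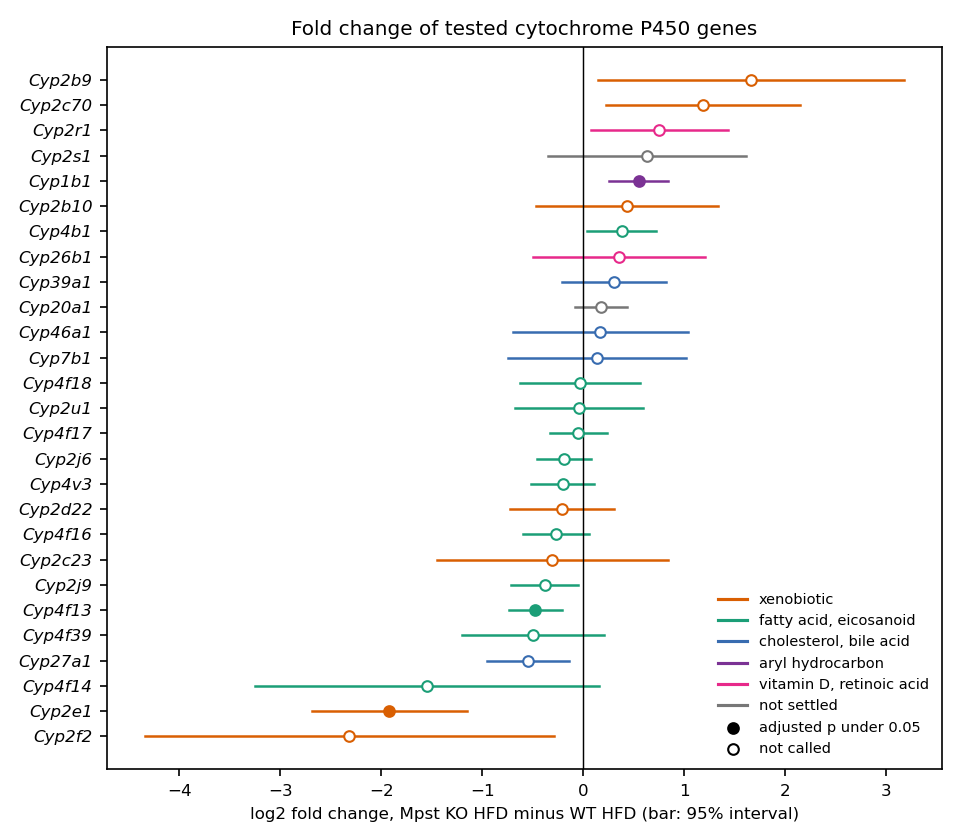
Log2 fold change of Mpst KO HFD minus WT HFD (x axis) for each of the 27 tested P450 genes (y axis), with its 95% interval as a bar, coloured by substrate class and filled where the adjusted p is under 0.05. Cyp2e1 (−1.92) and Cyp4f13 (−0.48) are the filled points left of 0, and Cyp1b1 (0.55) is the filled point right of it. The intervals of 7 open points lie to 1 side of 0, and no share over all tested genes is set beside that count.

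In family 1, the enzymes induced through the aryl hydrocarbon receptor, Cyp1b1 rose. Cyp1b1 oxidises polycyclic aromatic hydrocarbons and oestradiol and is known for its expression outside the liver. It had 32.2, 37.4 and 33.2 CPM in the knockout libraries, against 23.0, 21.3 and 25.95 CPM in the wild-type libraries. Every knockout library lay above every wild-type library. The level was 1.46-fold higher in the knockout (log2 fold change 0.55, SE 0.13, 95% interval 0.26 to 0.84, adjusted p = 0.0395). The gene spans 79701537 to 79715061 on the minus strand of chromosome 17. Its call held without wild-type replicate 3 (0.64, adjusted p = 0.0121), in a fit that called 18.3% of all genes, against 7.41% with all libraries. The call ended without any one of the other libraries, with log2 fold changes from 0.48 to 0.59 and adjusted p from 0.0806 to 0.160. Over all genes, 5.55% were called without wild-type replicate 1 and 0.32% or less in the other fits where the call ended. The 10 markers of stromal progenitors and fibroblasts, of which 3 were called higher and 3 had log2 fold changes below 0 (median 0.25), summed to 4767 to 5863 CPM in the knockout libraries and 3098 to 4216 CPM in the wild-type libraries, and their part in the rise was not tested.

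The other genes of the family were at or near 0. Cyp1a1 had 1, 4 and 0 counts in knockout and 1, 3 and 2 in wild type, and Cyp1a2 had none. A count of 0 allows up to 0.358, 0.132 and 0.127 CPM in knockout replicates 1, 2 and 3 and 0.184, 0.182 and 0.139 CPM in wild-type replicates 1, 2 and 3, taken as 3 counts and covering counting error only. The receptor gene Ahr had 10.7, 12.5 and 12.9 CPM in the knockout libraries, against 6.99, 6.69 and 9.80 CPM in the wild-type libraries, without overlap and without a call (log2 fold change 0.62, SE 0.20, adjusted p = 0.0863). Its repressor Ahrr had 3, 14 and 21 counts in knockout and 1, 3 and 11 in wild type (adjusted p = 0.224). Its partner Arnt had a log2 fold change of 0.04 (adjusted p = 0.904).

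In the cholesterol and bile acid class, 4 of 6 members were tested and none was called. Cyp27a1, the sterol hydroxylase of mitochondria that makes oxysterols and opens the alternative route to bile acids, had 38.0, 38.9 and 55.7 CPM in the knockout libraries, against 55.2, 63.9 and 74.9 CPM in the wild-type libraries. Knockout replicate 3 lay just above wild-type replicate 1. Its log2 fold change of −0.55 (SE 0.18, 95% interval −0.95 to −0.14, adjusted p = 0.0926) passed with DESeq2 (−0.56, adjusted p = 0.0374). The gene was not called with the other scalings, limma-voom or no low-count filter (adjusted p from 0.0802 to 0.0977). Nor was it called with any library left out (adjusted p from 0.0777 to 0.253). Cyp39a1, Cyp46a1 and Cyp7b1, hydroxylases of cholesterol and oxysterols, had log2 fold changes of 0.31, 0.17 and 0.13, with adjusted p of 0.418, 0.809 and 0.854. The sign turned for Cyp46a1 without wild-type replicate 3 (−0.016) and for Cyp7b1 without knockout replicate 1 (−0.11). Cyp7a1, the rate-limiting enzyme of bile acid synthesis in liver, was at 0, and Cyp8b1 had 3, 1 and 9 counts in knockout and 7, 4 and 3 in wild type.

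In the vitamin D and retinoic acid class, 2 of 6 members were tested and none was called. Cyp2r1, a vitamin D hydroxylase that makes the circulating form, had 4.65, 2.77 and 2.93 CPM in the knockout libraries, against 2.33, 1.70 and 1.95 CPM in the wild-type libraries. The groups were apart, with knockout replicate 1 the highest (log2 fold change 0.76, SE 0.30, adjusted p = 0.142). Cyp26b1, which breaks down retinoic acid, had 3.22, 3.21 and 5.35 CPM in the knockout libraries, against 1.90, 2.61 and 4.74 CPM in the wild-type libraries (log2 fold change 0.35, SE 0.38, adjusted p = 0.582). Cyp26a1 had 2, 9 and 9 counts in knockout and 6, 3 and 13 in wild type. Cyp27b1, which activates vitamin D, had at most 6 counts in any library, and Cyp24a1, which inactivates it, 1 count in all.

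No member of the steroid hormone class passed the filter. Cyp11a1, the side-chain cleavage enzyme that starts steroid synthesis, had 6, 7 and 12 counts in knockout and 6, 7 and 1 in wild type. Cyp17a1 had at most 6 counts in any library and Cyp21a1 at most 5. Cyp19a1, the aromatase that makes oestrogens and is known from human fat, had no count in any library. Among genes whose substrate is not settled, Cyp20a1 had 33.7, 30.2 and 31.2 CPM in the knockout libraries, against 27.5, 27.4 and 29.3 CPM in the wild-type libraries, without overlap (log2 fold change 0.17, SE 0.11, adjusted p = 0.351). Cyp2s1 had a log2 fold change of 0.64 (adjusted p = 0.373), and Cyp2t4 had 5, 1 and 6 counts in knockout and 5, 5 and 14 in wild type.

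Per kilobase of exon, the order of the highest mean levels was the same in both groups, Cyp2e1, Cyp4b1, Cyp4v3 and Cyp27a1. Cyp2e1 averaged 74.5 ± 38.3 CPM per kilobase in knockout and 282 ± 68.0 in wild type, and Cyp4b1 averaged 69.8 ± 12.6 CPM per kilobase in knockout and 53.6 ± 3.95 in wild type (SD, n = 3 each). In the knockout libraries Cyp2e1 had 48.9, 56.1 and 118 and Cyp4b1 58.7, 67.1 and 83.5 CPM per kilobase, so Cyp2e1 led in replicate 3 alone, and in wild type it stood far above Cyp4b1 in each library. Cyp4v3 averaged 29.6 ± 0.809 CPM per kilobase in knockout and 34.0 ± 5.603 in wild type, and Cyp27a1 averaged 20.3 ± 4.58 CPM per kilobase in knockout and 29.8 ± 4.56 in wild type (SD, n = 3 each), which lay within their spread of each other in wild type. Cyp2d22 came next in wild type and Cyp20a1 in the knockout, with 12.3 ± 1.62 CPM per kilobase in knockout and 14.3 ± 5.002 in wild type for Cyp2d22 and 13.9 ± 0.795 CPM per kilobase in knockout and 12.3 ± 0.471 in wild type for Cyp20a1 (SD, n = 3 each). Cyp2d13, at 0 in all libraries, was the only member without an exon length.

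The genes that serve P450 enzymes were read from 9 lists of partners and related pathways, of whose 122 genes 86 were tested. Of these, 3 were higher and 3 lower, or 6.98%, against 7.41% of all tested genes. The electron donors and heme partners had no call among 10 tested genes, of which 7 had log2 fold changes below 0 (median −0.19). Por, which passes electrons to microsomal P450 enzymes, had 305, 280.4 and 289 CPM in the knockout libraries, against 331, 454 and 724 CPM in the wild-type libraries. The knockout libraries lay close together below a wide wild-type range, without a call (log2 fold change −0.79, SE 0.25, adjusted p = 0.0869). Cyb5a, cytochrome b5, had the smallest p of the list (483 ± 36.4 CPM in knockout and 676 ± 81.2 CPM in wild type, SD, n = 3 each, log2 fold change −0.49, adjusted p = 0.0706). Fdx1, the ferredoxin that serves mitochondrial P450 enzymes such as Cyp27a1, had 46.7 ± 5.498 CPM in knockout and 67.8 ± 12.5 CPM in wild type (SD, n = 3 each, log2 fold change −0.54, adjusted p = 0.0732).

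Of 9 genes of heme synthesis, Alad, the second enzyme of the pathway, fell. It had 71.8, 78.6 and 65.9 CPM in the knockout libraries, against 114, 115 and 111 CPM in the wild-type libraries, with no overlap (log2 fold change −0.65, SE 0.11, adjusted p = 0.0191). Alas1, the rate-limiting enzyme, had 330.4 ± 36.6 CPM in knockout and 320.5 ± 52.1 CPM in wild type (SD, n = 3 each, log2 fold change 0.04, adjusted p = 0.882). None of 16 tested transcription factors of P450 genes was called. Nfe2l2, a regulator of oxidative defence, had the smallest p of that list (83.4 ± 4.27 CPM in knockout and 59.8 ± 8.59 CPM in wild type, SD, n = 3 each, log2 fold change 0.48, adjusted p = 0.0603). Hnf4a, Nr1i2 and Nr1i3, factors known from the liver, did not pass the filter.

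Among enzymes of eicosanoids, Hpgds, the hematopoietic prostaglandin D synthase, was higher, with 11.3, 14.5 and 13.8 CPM in the knockout libraries, against 4.54, 1.64 and 1.49 CPM in the wild-type libraries (log2 fold change 2.39, SE 0.39, adjusted p = 0.0173). Ptges, a prostaglandin E synthase, was lower, with 36.6, 36.2 and 33.8 CPM in the knockout libraries, against 56.4, 60.4 and 52.7 CPM in the wild-type libraries (log2 fold change −0.67, SE 0.11, adjusted p = 0.0174). Both genes had groups that were fully apart, and the log2 fold change of Hpgds was 3.09 without wild-type replicate 1. The epoxide hydrolase Ephx2, which breaks down the products of P450 epoxygenases, was not called (379 ± 27.7 CPM in knockout and 455 ± 94.8 CPM in wild type, SD, n = 3 each, log2 fold change −0.26, adjusted p = 0.347).

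Tbxas1, thromboxane synthase and itself a P450 enzyme, was higher, with 15.98, 23.0 and 23.2 CPM in the knockout libraries, against 10.7, 11.3 and 6.45 CPM in the wild-type libraries (log2 fold change 1.14, SE 0.24, adjusted p = 0.0311). Ptgis, prostacyclin synthase and likewise a P450, had 4.22 ± 1.62 CPM in knockout and 8.25 ± 3.04 CPM in wild type without a call (SD, n = 3 each, log2 fold change −1.01, adjusted p = 0.109). Of the 10 macrophage markers, 8 were called higher, with a median log2 fold change of 1.32, and their part in the calls of Hpgds and Tbxas1 was not tested.

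In the other lists, Hsd17b10, a mitochondrial dehydrogenase, was lower, with 88.1, 90.4 and 76.4 CPM in the knockout libraries, against 129, 156 and 154 CPM in the wild-type libraries (log2 fold change −0.78, SE 0.13, adjusted p = 0.0173), as the only call among 11 tested steroid dehydrogenases and reductases. Ugt1a6a, a glucuronosyltransferase, was higher, with 3.58, 2.68 and 3.10 CPM in the knockout libraries, against 1.04, 1.52 and 0.789 CPM in the wild-type libraries (log2 fold change 1.48, SE 0.32, adjusted p = 0.0339), as the only call among 9 tested conjugating enzymes. Genes of the Ugt1a locus share their last exons, so its count is uncertain. None of 9 tested retinoid genes and none of 4 tested flavin monooxygenases was called, and their smallest p belonged to Rbp7 (−0.58, adjusted p = 0.0609) and Fmo2 (0.71, adjusted p = 0.102). All 6 calls of these lists ended without wild-type replicate 2 (adjusted p from 0.100 to 0.109) or any one knockout replicate (adjusted p from 0.0629 to 0.114), and that of Ugt1a6a also ended without wild-type replicate 1 (adjusted p = 0.0691). Without wild-type replicate 2 or any one knockout replicate, 0.32% or less of all genes were called, against 7.41% with all libraries.

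**Figure D4:**
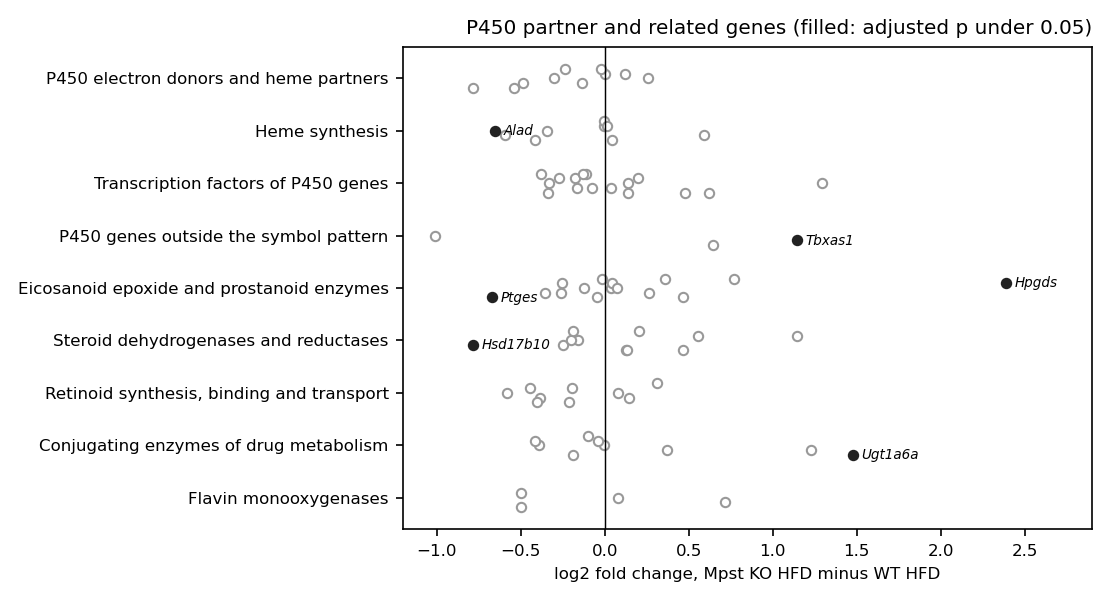
Log2 fold change of Mpst KO HFD minus WT HFD (x axis) for the 86 tested genes of 9 lists of P450 partners and related pathways (y axis), 1 point per gene, filled and named where the adjusted p is under 0.05. The filled points left of 0 are Alad, Ptges and Hsd17b10, and those right of 0 are Tbxas1, Hpgds and Ugt1a6a.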

How the data were processed

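Per the labels' protocols, RNA was extracted with TRIzol and sequenced as single-end reads of 75 bp from TruSeq RNA v2 libraries, a kit that keeps no strand information. The authors deposited raw counts per gene symbol, 1 file per library. The submitters' processing notes name HISAT2 2.1.0, HTSeq 0.13.5, DESeq2 1.26 and mm10, with annotation and counter settings not given in the sources used here. Summary lines were left out of totals and tests, and reads assigned to no feature were 8.85% to 14.7% of uniquely placed reads. Replicates differed by more than sampling noise.

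Genotypes were compared across all genes without covariates in R 4.3.3 with edgeR 4.0.16 (filterByExpr with a minimum count of 10, trimmed mean of M-values, robust quasi-likelihood test, Benjamini-Hochberg adjustment), checked on simulated data. Standard errors are fold changes on the log2 scale over the root of F. Alternatives were DESeq2 1.42.0, limma-voom (limma 3.58.1), 2 other scalings, no filter, a replicate block and leaving out each library. Positions and exon lengths are from GENCODE M21 and upstream sequences from RefSeq. Classes follow subfamilies.

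The members and lists were chosen with earlier results of these data known. The rule allowed every tested P450 gene, untested ones with 10 or more counts in a library, and of each list the called genes or that with the smallest p. Other genes named were chosen after their values were seen. Of 75-base windows in the transcripts of tested members, at most 10.1% (Cyp4f16) also occurred in another gene. Counts of Cyp2u1, Cyp2f2, Cyp2s1 and Cyp4f18 are uncertain because annotated genes overlap them on the other strand. Cyp4v3, Cyp20a1, Cyp39a1 and Cyp7b1 are overlapped by annotated genes on their own strand, so their counts may be uncertain as well.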

Additional observations from a re-analysis of the deposited data

How the results depend on the processing

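Cyp2e1, Cyp1b1 and Cyp4f13 kept their direction and call with both other scalings, DESeq2, limma-voom, no low-count filter and the block. With each library left out in turn, 0 to 1 P450 genes were called higher and 0 to 2 lower. Deviations of same-numbered libraries correlated at 0.18, −0.11 and 0.31, and 3 of 6 libraries correlated best with their own number. With 3 libraries per group, these values cannot settle whether the shared replicate numbers pair the libraries. With the replicate number as a block, 2 P450 genes were called higher and 4 lower, against 1 and 2 without it, the added ones being Cyp4b1 (0.37, adjusted p = 0.0417), Cyp27a1 (−0.56, adjusted p = 0.0130) and Cyp2f2 (−2.14, adjusted p = 0.0265). Partner genes called higher numbered 3, against 6 with DESeq2, 8 with the block and 0 to 9 with each library left out. Those called lower numbered 3, against 10 with DESeq2, 13 with the block and 0 to 9 with each library left out. Over all genes, 669 were higher and 373 lower, against 1026 and 877 with DESeq2 and 1387 and 1289 with the block. Those counts were 41 and 5, 1 and 1, and 1 and 2 when knockout replicates 1, 2 and 3 were dropped. They were 538 and 263, 0 and 1, and 1434 and 1167 when wild-type replicates 1, 2 and 3 were dropped.

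The log2 fold changes of some genes without a call changed sign, and the cause was not tested. For Cyp4f18 the value was 0.091 with limma-voom, 0.032 with the block and −0.29 to 0.18 with each library left out. For Cyp2c23 it was 0.025 with limma-voom and −0.75 to 0.10 with each library left out. With each library left out, it ranged from −0.11 to 0.42 for Cyp7b1, −0.016 to 0.43 for Cyp46a1, −0.20 to 0.17 for Cyp2u1 and −0.38 to 0.12 for Cyp2d22. Depth limits the 35 members with counts that were not tested.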

Other observations

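Cyp2ab1, a P450 gene that the naming pattern passes over, had 9, 24 and 50 counts in knockout and 19, 19 and 19 in wild type (log2 fold change 0.45, edgeR adjusted p = 0.473). Cyp51, the P450 enzyme of cholesterol synthesis, had 66.1, 66.2 and 43.8 CPM in the knockout libraries, against 60.7, 34.7 and 17.1 CPM in the wild-type libraries, and replicate 3 was the lowest in each group (log2 fold change 0.65, edgeR adjusted p = 0.353). Among the pseudogenes left out, Cyp4f41-ps had 4, 8 and 9 counts in knockout and 6, 4 and 6 in wild type, Cyp4b1-ps2 had at most 3 counts in any library, and the others had none.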
